A study of Homo sapiens with 5 samples.

Results

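The genes described here are the integrin chains and the laminin chains, in RNA-seq libraries of human 501Mel melanoma cells and Hermes 3A melanocytes that both carried an shRNA against BPTF. They were chosen by name, as the protein-coding genes of GENCODE 29 whose symbol is ITGA or ITGB followed by digits or by D, E, L, M, V or X, or LAMA, LAMB or LAMC followed by a digit, and present in all count files. The rule gave 37 genes of 31029, made up of 17 integrin alpha, 8 integrin beta, 5 laminin alpha, 4 laminin beta and 3 laminin gamma genes. ITGA2B, the platelet alpha chain, ITGBL1 and the integrin-binding protein genes fall outside the rule.

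BPTF is the large subunit of the chromatin-remodelling complex NURF. There were 2 libraries of 501Mel cells and 3 of Hermes 3A cells, an untransformed melanocyte line, each carrying lentiviral shBPTF. For shRNA experiments in general the methods give 5 days in puromycin at 3 µg/ml unless indicated otherwise. The methods list a pair of shBPTF constructs and do not say which was sequenced. 501Mel cells grew in serum-supplemented RPMI, and the Hermes 3A medium held in addition the phorbol ester TPA, cholera toxin, stem cell factor and endothelin, so that cell line and medium cannot be told apart. No shControl library was analysed here, and the differences below lie between knockdown cells of different lines and cannot be read as effects of the knockdown. Each line is 1 established culture, and although the methods say that experiments were repeated, they do not tie these libraries to separate infections, so p-values measure the spread between these libraries.

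Integrins are cell surface receptors made of 1 alpha and 1 beta chain, and the pair decides which ligand is bound. ITGB1 joins many alpha chains, whereas ITGAV joins several beta chains. Laminins are trimers of an alpha, a beta and a gamma chain, secreted into basement membranes, where some integrins bind them. Melanocytes sit on the epidermal basement membrane and hold to it through integrins, and a switch of integrin chains is a known feature of melanoma.

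Libraries held 43032311 and 37856675 counts in 501Mel cells against 41653084, 40865034 and 30073071 in Hermes 3A cells. Levels are given as CPM, the count per 1000000 of the library's total over the 17975 genes that passed the count filter, after TMM scaling. A floor of 3 counts corresponds to 0.0675 to 0.101 CPM and covers counting error only. BPTF itself was at 63.7 and 57.1 CPM in 501Mel cells and at 48.7, 50.9 and 54.9 CPM in Hermes 3A cells, which did not pass the test (log2 fold change 0.23, SE 0.139, adjusted p = 0.208), and without shControl these values do not check the knockdown. All 9 melanocyte markers were detected in each library, with summed levels of 12991 and 20106 CPM in 501Mel cells against 32288 to 35474 CPM in Hermes 3A cells, sums carried mostly by TYRP1 and PMEL. Single markers differed in direction, with DCT at 1034 and 1284 CPM against 7.85, 8.70 and 13.3 CPM and EDNRB also higher in 501Mel cells, TYR, PMEL, MLANA and SOX10 lower, and MITF, KIT and TYRP1 not called. Fold changes are log2 of 501Mel over Hermes 3A, with a standard error and a Benjamini-Hochberg adjusted p over all 17975 genes tested by edgeR's quasi-likelihood test, and a gene is called at an adjusted p of at most 0.05.

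Of the 37 genes 31 had enough counts to be tested. In 501Mel cells 3 were higher (ITGA9, LAMC3 and ITGA11) and 12 were lower (ITGA4, ITGB3, ITGA5, ITGA3, LAMB3, ITGB8, LAMB4, LAMB2, ITGB5, LAMA5, ITGB1 and ITGAE), and 16 did not pass the test. Among all genes tested 48.2% were called, 24.2% higher and 24% lower, so the 15 calls among 31 genes (48.4%) lay at the background share. In bulk RNA, fewer expressing cells and less RNA per cell cannot be told apart. With an absolute log2 fold change of at least 1 as well, 13 were called, against 34.3% of all genes. The median log2 fold change was -0.65 over the tested integrins and laminins, and 0.02 over all genes tested. The libraries of the lines did not overlap for 18 of the 31 genes, 3 above and 15 below, against 69.6% of all genes.

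**Figure D1:**
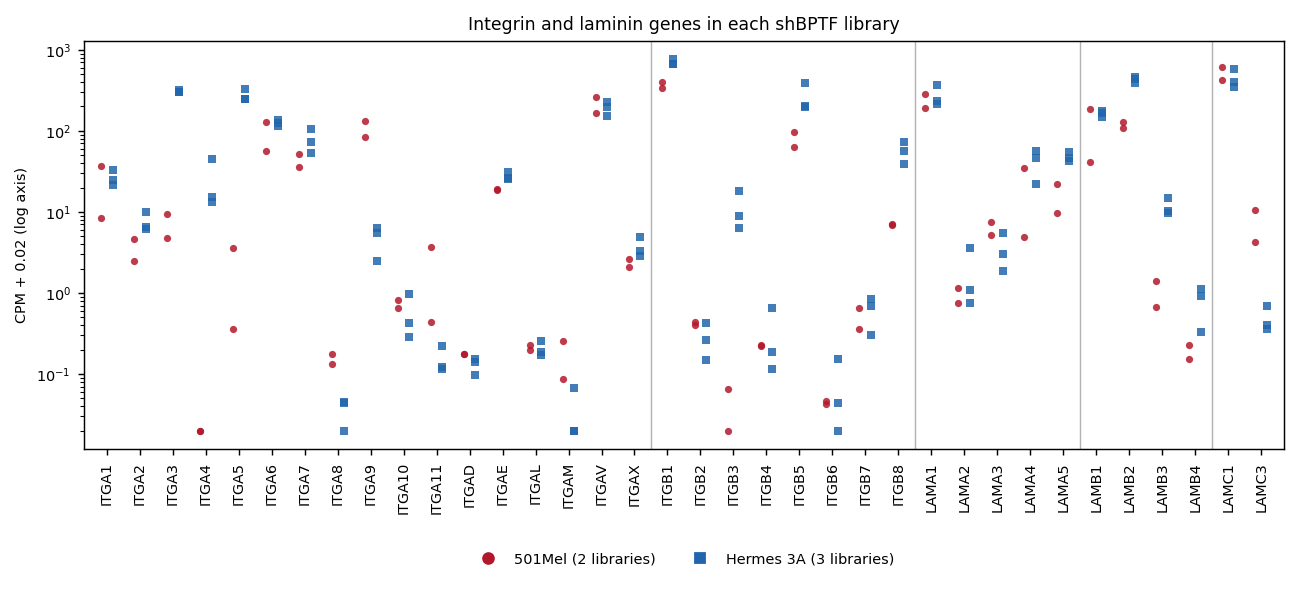
Level of the integrin and laminin genes reported, in each library, as CPM + 0.02 on a log axis, with circles for the 2 501Mel libraries and squares for the 3 Hermes 3A libraries. ITGB1, LAMC1, LAMB2, ITGAV and LAMA1 lie high in both lines, whereas ITGA3, ITGA4, ITGA5 and ITGB3 lie far lower in 501Mel cells.

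**Figure D2:**
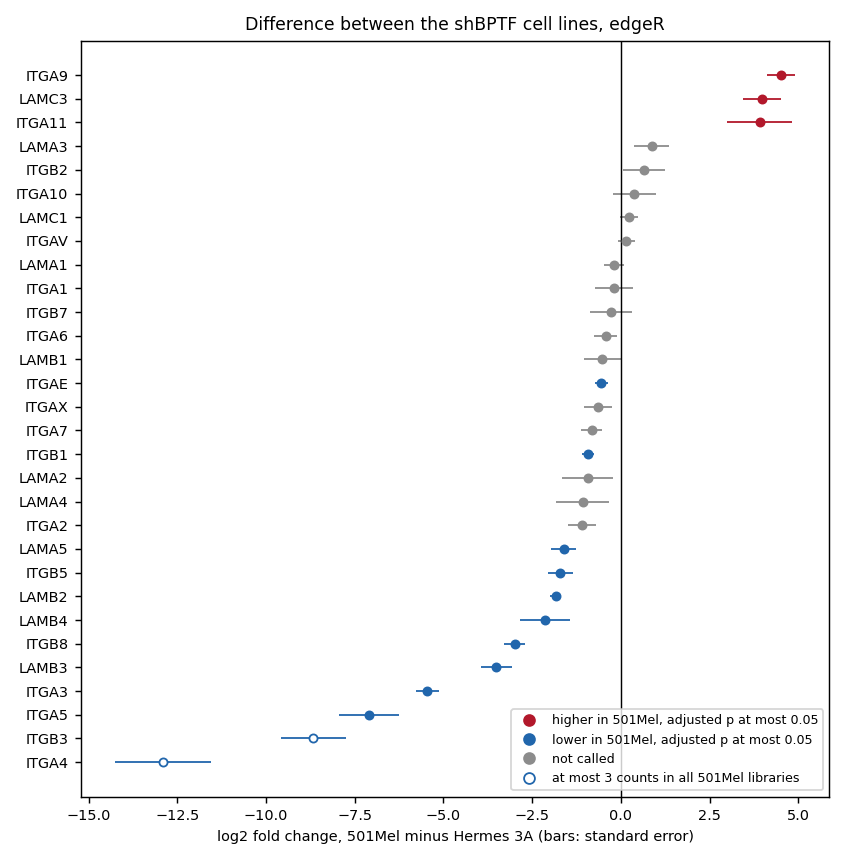
Fitted log2 fold change of the tested genes reported, 501Mel minus Hermes 3A, with bars for the standard error and colours for the call at an adjusted p of at most 0.05. Open circles are ITGA4 and ITGB3, whose 501Mel libraries held at most 3 counts in all, so that their fitted values depend on the prior count and are not sizes of a change.

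Some of the widest differences lay in the alpha chains that bind laminin or fibronectin. ITGA3, a laminin-binding chain (chromosome 17 of GRCh38, from 50055968 to 50090481, plus strand), was at 9.32 and 4.72 CPM in 501Mel cells and at 303, 302 and 320 CPM in Hermes 3A cells. The Hermes 3A libraries agreed closely and lay far above both 501Mel libraries (log2 fold change -5.45, SE 0.332, adjusted p = 5.2e-05). ITGA5, the alpha chain of the fibronectin receptor (chromosome 12, from 54395261 to 54419460, minus strand), was at 3.6 and 0.339 CPM against 330, 247 and 248 CPM. The 501Mel libraries differed 10.6-fold from each other and still lay far below Hermes 3A cells (log2 fold change -7.10, SE 0.848, adjusted p = 0.00071), by -9.65 without 501Mel replicate 1 and -6.27 without replicate 2.

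ITGA4, which pairs with ITGB1 or ITGB7 and binds VCAM1 and fibronectin (chromosome 2, from 181457202 to 181536187, plus strand), had 0 counts in both 501Mel libraries and 1779, 549 and 458 counts in Hermes 3A cells. These are 45.5, 13.2 and 15.5 CPM, with Hermes 3A replicate 1 the highest. Against 3 counts per 501Mel library ITGA4 was at least 339-fold lower in 501Mel cells (adjusted p = 0.000754), and at least 197-fold without Hermes 3A replicate 1. ITGA9, which is related to ITGA4 in sequence and also pairs with ITGB1, went the other way (chromosome 3, from 37452115 to 37823514, plus strand). It was at 84 and 134 CPM in 501Mel cells and at 2.48, 6.39 and 5.5 CPM in Hermes 3A cells (log2 fold change 4.51, SE 0.405, adjusted p = 0.000225), the largest called rise among the tested genes of the set. Its antisense gene ITGA9-AS1 had 18 to 56 counts per library, against 97 counts or more for ITGA9.

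Promoter sequences from RefSeq (GRCh38.p14) were present for 25 of the 37 genes, in 32 entries of 300 bases from 250 before to 50 after the start. They were searched on both strands for TGANTCA, the AP-1 motif, and for the E-box letters CACGTG and CATGTG, both of which MITF can bind. TGANTCA occurred in ITGA5, LAMA3 and LAMB3, in 3 of the 32 entries and in 7.71% of all 35116. CACGTG occurred in ITGA6 alone (7.26% of all), and CATGTG in ITGAE, ITGB7, LAMA3 and LAMB4 (11.1% of all). The site of ITGA5 and the stretch of LAMB3 are shown because both genes are among the largest falls and hold the AP-1 letters, and that of ITGA11 because it is the only called rise with an entry. Capitals mark TGANTCA, and each sequence runs 5′ to 3′ on the gene's strand. The ITGA5 site, chr12:54419254-54419283, begins 17 bases before the RefSeq start and lies inside the first exon of a GENCODE 29 transcript. The ITGA11 stretch, chr15:68432164-68432413, ends before the gene. LAMB3 has 3 entries, and the motif is in the one at an internal start, so that its stretch, chr1:209651395-209651624, lies inside the gene, in an intron of its longer transcripts, and covers no exon of it. All are on the minus strand.
ITGA5: cctccccgcgtTGAGTCAttcgcctctggg
LAMB3: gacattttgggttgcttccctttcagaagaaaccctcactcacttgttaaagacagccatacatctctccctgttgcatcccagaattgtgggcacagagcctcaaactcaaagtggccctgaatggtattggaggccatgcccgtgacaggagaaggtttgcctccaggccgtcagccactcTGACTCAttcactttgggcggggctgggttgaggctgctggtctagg
ITGA11: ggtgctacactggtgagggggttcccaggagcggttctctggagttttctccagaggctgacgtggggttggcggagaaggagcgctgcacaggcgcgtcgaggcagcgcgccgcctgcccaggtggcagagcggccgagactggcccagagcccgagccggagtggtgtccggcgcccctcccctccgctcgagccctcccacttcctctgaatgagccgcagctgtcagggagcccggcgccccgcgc
These matches are letters in a window, and no binding was measured here.

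Other laminin-binding alpha chains differed less. ITGA6, which pairs with ITGB1 or ITGB4, was at 129 and 55.8 CPM in 501Mel cells and at 135, 124 and 114 CPM in Hermes 3A cells. The ranges overlapped and the difference was not called (log2 fold change -0.43, SE 0.321, adjusted p = 0.304), while without 501Mel replicate 1 it was called lower (-1.16, adjusted p = 0.00651) and without replicate 2 it was 0.040 (adjusted p = 0.881). ITGA7, the laminin receptor chain best known from muscle, was at 35.6 and 51.5 CPM against 105, 72.3 and 53.8 CPM, with no overlap but without a call (log2 fold change -0.83, SE 0.301, adjusted p = 0.0562). It overlaps BLOC1S1 on the other strand, and whether counting used strand is not given in the sources used here.

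Of the collagen-binding alpha chains only ITGA11 was called. ITGA1 was at 37.3 and 8.43 CPM in 501Mel cells and at 32.8, 21.2 and 24.8 CPM in Hermes 3A cells, so that the 501Mel libraries lay on both sides of Hermes 3A cells (log2 fold change -0.20, SE 0.542, adjusted p = 0.781). Without 501Mel replicate 1 it was called lower, at -1.64 (adjusted p = 0.0132), and without replicate 2 the sign turned, to 0.49 (adjusted p = 0.217). PELO lies inside ITGA1 on the same strand, with 1250 to 2620 counts. ITGA2 was at 4.57 and 2.45 CPM against 9.97, 6.58 and 6.11 CPM, without overlap and without a call (log2 fold change -1.10, SE 0.402, adjusted p = 0.0559). ITGA10 lay between 0.27 and 0.964 CPM in all libraries and was not called. ITGA11, a receptor for fibrillar collagen, was at 3.71 and 0.417 CPM in 501Mel cells and at 0.205, 0.0964 and 0.101 CPM in Hermes 3A cells (log2 fold change 3.91, SE 0.925, adjusted p = 0.0115). That rise rested on 165 counts in 501Mel replicate 1, since replicate 2 had 16 counts, and without replicate 1 the log2 fold change was 1.60 and was not called (adjusted p = 0.188). Without replicate 2 it was 4.73.

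ITGAV, the alpha chain of the vitronectin receptors, was abundant in both lines and not called, at 264 and 164 CPM in 501Mel cells and at 196, 155 and 228 CPM in Hermes 3A cells. The ranges overlapped (log2 fold change 0.15, SE 0.245, adjusted p = 0.644). ITGA8, another chain that recognises the RGD motif, had 5 and 6 counts in 501Mel cells against 1, 1 and 0 in Hermes 3A cells, too few to test. The ratio of its depth-scaled counts was 7.32, with an exact 95% interval of 1.60 to 68.0 that covers counting error only.

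Alpha chains known from leukocytes were at or near the floor, apart from ITGAE and ITGAX. ITGAE, the chain that pairs with ITGB7 to bind E-cadherin, was at 18.9 and 18.4 CPM in 501Mel cells and at 30.7, 25.4 and 26.1 CPM in Hermes 3A cells, a small difference without overlap (log2 fold change -0.55, SE 0.178, adjusted p = 0.0364). Its call was lost without either 501Mel library and without Hermes 3A replicate 2 or 3 (adjusted p of 0.064 to 0.118), and it overlaps HASPIN on the other strand. ITGAX lay between 2.06 and 4.94 CPM and was not called (log2 fold change -0.65, SE 0.391, adjusted p = 0.206). ITGAL had 6 to 8 counts, ITGAD 3 to 7 and ITGAM 0 to 9 per library, and none was tested. The leukocyte markers analysed summed to 0.72 and 0.783 CPM in 501Mel cells and to 0.87 to 1.65 CPM in Hermes 3A cells, and PTPRC, the pan-leukocyte CD45 gene, had 2 counts in 1 501Mel library and 0 in the others.

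The beta chains gave 4 calls among 6 tested genes, all lower in 501Mel cells, against 48.2% of all genes called and 24% called lower. ITGB1, the partner of most alpha chains above (chromosome 10, from 32900319 to 33005792, minus strand), was the most abundant integrin in both lines per length as well as in CPM. It was at 401 and 336 CPM in 501Mel cells and at 675, 659 and 763 CPM in Hermes 3A cells (log2 fold change -0.92, SE 0.167, adjusted p = 0.00387). ITGB5, which joins ITGAV, was at 96.3 and 63.8 CPM against 386, 195 and 203 CPM (log2 fold change -1.71, SE 0.354, adjusted p = 0.00675). Hermes 3A replicate 1 stood above the other two of its line.

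ITGB8, which joins ITGAV in a receptor that activates TGF-beta, was at 7.11 and 6.89 CPM in 501Mel cells and at 56.5, 39 and 72.6 CPM in Hermes 3A cells (log2 fold change -3.00, SE 0.295, adjusted p = 0.000315). ITGB3, which with ITGAV forms the vitronectin receptor long studied in invasive melanoma (chromosome 17, from 47253846 to 47311816, plus strand), had 2 and 0 counts in 501Mel cells against 704, 365 and 188 counts in Hermes 3A cells. The ratio of depth-scaled counts, Hermes 3A over 501Mel, was 472, with an exact 95% interval of 130.4 to 3901 for counting error only (adjusted p = 0.000441). Without 501Mel replicate 1, which held both counts, it was at least 141-fold lower in 501Mel cells, and without replicate 2 the ratio was 253 (interval 70.0 to 2095). Of the partners of ITGAV, then, ITGB1, ITGB3, ITGB5 and ITGB8 were all lower in 501Mel cells, while ITGAV was not called.

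The other beta chains were scarce. ITGB2, the leukocyte beta chain, lay between 0.128 and 0.417 CPM and ITGB7 between 0.281 and 0.82 CPM, and neither was called. ITGB4, which with ITGA6 forms the hemidesmosome receptor, had 9 and 8 counts in 501Mel cells against 25, 4 and 5 in Hermes 3A cells. ITGB6, the epithelial partner of ITGAV, had 0 to 4 counts. Neither was tested, and both lines thus had abundant ITGA6 with few counts on ITGB4.

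To compare chains with each other, CPM were divided by the length of the union of a gene's exons in kb. ITGAV took 42.6% and 34.8% of the summed alpha chain level in 501Mel cells against 16%, 15.5% and 21.6% in Hermes 3A cells. ITGA9 took 13.5% and 28.2% in 501Mel cells and at most 0.634% in Hermes 3A cells. ITGA3 took 1.26% and 0.84% against 20.6%, 25.3% and 25.4%, and ITGA5 took 0.63% and 0.078% against 29%, 26.8% and 25.5%. On average ITGAV, ITGA9 and ITGA6 took the most in 501Mel cells. ITGA9 and ITGA6 were close there (20.8% and 20.6%), and ITGA6 was above with the median transcript length (14.8% against 13.0%), with the longest transcript (19.5% against 17.8%) and without 501Mel replicate 2 (26.2% against 13.5%). In Hermes 3A cells ITGA5 and ITGA3 took the most, with ITGA3 above ITGA5 by the longest transcript (28.7% against 27.7%). Their summed level was 75.4 and 57.4 CPM per kb in 501Mel cells and 150, 122 and 128 CPM per kb in Hermes 3A cells.

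ITGB1 took 81% and 84.2% of the beta chain level in 501Mel cells against 62.3%, 75.8% and 77% in Hermes 3A cells, and ITGB5 took most of the rest. The beta sums were 82.3 and 66.4 CPM per kb against 180, 145 and 165 CPM per kb. Chains were also grouped by ligand after their values were seen. ITGA3, ITGA6 and ITGA7, which bind laminin, together took 34.9% and 29.8% of the alpha level in 501Mel cells against 45.5%, 50.2% and 45.7% in Hermes 3A cells. Of these ITGA3 alone had a lower share in 501Mel cells without overlap, while ITGA6 took 26.2% and 14.9% against 13.8%, 15.5% and 13.6% and ITGA7 took 7.41% and 14.1% against 11%, 9.33% and 6.58%. ITGA5, ITGA8 and ITGAV, which recognise RGD, took 43.2% and 34.9% against 45%, 42.3% and 47.1%, with overlap. Within that group the chain differed, almost wholly ITGAV in 501Mel cells and ITGA5 with ITGAV in Hermes 3A cells.

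Among laminin alpha chains LAMA1 led in every library by this length. LAMA1, the chain of the embryonic type of laminin, was at 289 and 192 CPM in 501Mel cells and at 369, 216 and 235 CPM in Hermes 3A cells, with overlap (log2 fold change -0.19, SE 0.28, adjusted p = 0.613). LAMA5, found in the laminins of many adult basement membranes, was at 21.8 and 9.58 CPM against 42.5, 55.3 and 46.8 CPM and was called lower in 501Mel cells (log2 fold change -1.61, SE 0.347, adjusted p = 0.00779). It was called with either 501Mel library left out, at -2.33 without replicate 1 and -1.16 without replicate 2. ADRM1 overlaps LAMA5 on the other strand with 3330 to 7796 counts.

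LAMA4, a chain best known from blood vessel walls, was at 34.5 and 4.96 CPM in 501Mel cells and at 21.9, 46.9 and 56.8 CPM in Hermes 3A cells. The 501Mel libraries differed 6.96-fold and the ranges of the lines overlapped (log2 fold change -1.08, SE 0.744, adjusted p = 0.265), and without replicate 1 it was called lower (-3.08, adjusted p = 0.0112), and without replicate 2 it was not called (-0.29, adjusted p = 0.672). LAMA2, the merosin chain of muscle, lay between 0.731 and 3.55 CPM, and LAMA3, the alpha chain of epidermal laminin, lay at 5.11 and 7.49 CPM against 5.52, 3.01 and 1.82 CPM. Neither was called (log2 fold changes -0.93, SE 0.721, and 0.86, SE 0.485). LAMA1 took 78.6% and 87.8% of the laminin alpha level per length in 501Mel cells against 80.6%, 62.3% and 63.9% in Hermes 3A cells.

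Of the laminin beta chains 3 of 4 were called, all lower in 501Mel cells, against 48.2% of all genes called and 24% called lower. LAMB2 (chromosome 3, from 49121114 to 49133118, minus strand) was at 110 and 129 CPM in 501Mel cells and at 391, 435 and 458 CPM in Hermes 3A cells, with narrow spread in both lines (log2 fold change -1.84, SE 0.163, adjusted p = 0.000214). LAMB3, the beta chain that joins LAMA3 in the epidermal basement membrane, was at 1.37 and 0.652 CPM against 14.9, 9.62 and 10.3 CPM (log2 fold change -3.51, SE 0.448, adjusted p = 0.000925), and its log2 fold change was -4.15 without 501Mel replicate 1. LAMB4 was scarce in both, at 0.135 and 0.209 CPM against 0.307, 0.892 and 1.11 CPM (log2 fold change -2.14, SE 0.704, adjusted p = 0.0393). Its call was lost without either 501Mel library and without Hermes 3A replicate 2 or 3 (adjusted p of 0.0761 to 0.19).

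LAMB1, which joins LAMA1, LAMA2, LAMA4 or LAMA5, was at 185 and 41.8 CPM in 501Mel cells and at 177, 165 and 148 CPM in Hermes 3A cells. One 501Mel library was above and the other below every Hermes 3A library, and the difference was not called (log2 fold change -0.53, SE 0.52, adjusted p = 0.435). Without replicate 1 it was called lower, at -1.97 (adjusted p = 0.00129), and without replicate 2 the sign turned, to 0.17 (adjusted p = 0.512). LAMB2 took 40.9% and 78% of the beta level per length in 501Mel cells against 69.5%, 73.8% and 76.4% in Hermes 3A cells. DLD overlaps LAMB1 on the other strand with 4119 to 7241 counts.

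LAMC1, the gamma chain of most laminins (chromosome 1, from 183023460 to 183145592, plus strand), was at 605 and 422 CPM in 501Mel cells and at 572, 345 and 403 CPM in Hermes 3A cells. In Hermes 3A cells LAMB2 was above LAMC1 in replicates 2 and 3 in CPM, and on average per kb (62.3 against 52.4 CPM per kb). The LAMC1 ranges overlapped (log2 fold change 0.22, SE 0.258, adjusted p = 0.507). LAMC3 (chromosome 9, from 131009082 to 131094473, plus strand) was at 10.7 and 4.2 CPM in 501Mel cells and at 0.384, 0.675 and 0.337 CPM in Hermes 3A cells, without overlap (log2 fold change 3.98, SE 0.539, adjusted p = 0.00118), and the log2 fold change was 3.15 without 501Mel replicate 1. LAMC1 still took at least 98% of the gamma level per length in every library.

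Read as trimers, the chains LAMA1, LAMB1 and LAMC1 had the highest scarcest chain of the 6 known combinations examined (LAMA1 or LAMB1), at 18.2 and 5.13 CPM per kb in 501Mel cells and at 21.8, 13.6 and 14.8 CPM per kb in Hermes 3A cells. With LAMA4, LAMC1 and either LAMB1 or LAMB2 the scarcest chain was LAMA4, at 2.98 and 0.428 CPM per kb against 1.89, 4.05 and 4.90. In the same trimers with LAMA5 it was LAMA5, at 1.53 and 0.67 CPM per kb against 2.97, 3.87 and 3.27. Of LAMA2, LAMB1 and LAMC1 the scarcest was LAMA2, at no more than 0.343 CPM per kb. Protein and assembly were not measured.

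Some genes of the set are neighbours. ITGA1 and ITGA2 lie 30115 bases apart on chromosome 5, and neither was called. ITGAM, ITGAX and ITGAD lie in a row on chromosome 16, with gaps of 22241 and 10314 bases, and only ITGAX had enough counts to test. LAMB1 and LAMB4 lie 20292 bases apart on chromosome 7, and LAMB4 alone was called.

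Both 501Mel libraries came from the same line, yet 8 of the 31 tested genes were at least 2-fold higher in replicate 1 than in replicate 2 on the log2(CPM + 0.5) scale, and none was as much lower. Of all genes tested 3.42% were that much higher and 1.37% that much lower. The 8 were LAMA4, ITGA5, ITGA11, LAMB1, ITGA1, LAMC3, ITGA6 and LAMA5, with CPM ratios between 2.28 (LAMA5) and 10.6 (ITGA5). ITGA9, ITGA7, LAMA3, LAMB2, LAMB4 and ITGB2 were higher in replicate 2, each by less than 2-fold. The sum of fibroblast markers moved the same way, at 17.7 CPM in replicate 1 and 4.2 CPM in replicate 2. It was mostly LUM (8.08 and 2.30 CPM) and COL1A1 (6.32 and 0.731 CPM), while COL1A2 was at 0.0675 and 0.104 CPM. The sum of melanocyte markers moved the opposite way, at 12991 and 20106 CPM, mostly through TYRP1 and PMEL, while KIT was at 385 and 384 CPM. The part of these markers in the difference was not tested.

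**Figure D3:**
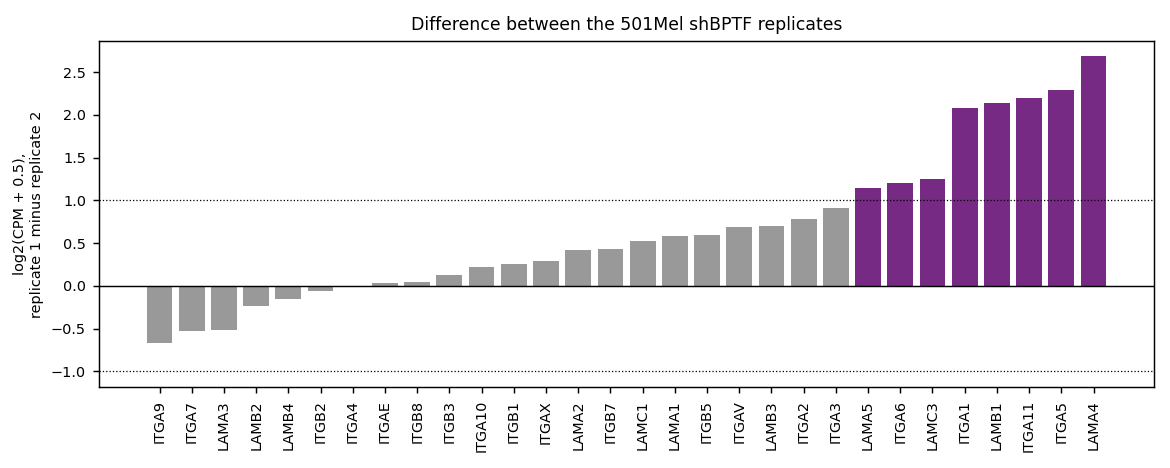
Difference between the 501Mel replicates for the tested genes reported, as log2(CPM + 0.5) of replicate 1 minus replicate 2, with dotted lines at a 2-fold difference. The 8 purple bars pass the upper line, from LAMA5 to LAMA4, and no bar passes the lower line.

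Genes that work with integrins and laminins were taken from 5 lists, which were chosen with earlier results of these data known. Adaptors and kinases of adhesion sites had 23 tested genes, of which 3 were higher and 13 lower in 501Mel cells (median log2 fold change -0.56). Of these genes 69.6% were called, against 48.2% of all genes (24.2% higher, 24% lower). Without 501Mel replicate 2 fewer of these genes were called, and their share called was no longer above that of all genes. SRC, the tyrosine kinase that acts with focal adhesion kinase, was at 0.653 and 0.235 CPM in 501Mel cells and at 63.2, 73.5 and 88.2 CPM in Hermes 3A cells (log2 fold change -7.36, SE 0.421, adjusted p = 4.27e-05). FERMT1, the kindlin of epithelia, was also lower (-3.64, SE 0.499). The blood cell kindlin FERMT3 was higher (1.94, SE 0.495), at 1.15 and 2.82 CPM against 0.511, 0.554 and 0.472 CPM. The talin TLN2 was higher too (1.32, SE 0.184). TLN1, the more abundant talin, was lower (-0.56, SE 0.173), at 278 and 307 CPM against 503, 391 and 395 CPM. FERMT2, VCL and PTK2, encoding kindlin, vinculin and focal adhesion kinase, were not called.

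Membrane proteins that associate with integrins were lower in 501Mel cells for 6 of 7 genes, and none was higher (median log2 fold change -1.62). Among all genes 24% were called lower and 24.2% higher. The tetraspanin CD9 was at 0.158 and 0.0783 CPM in 501Mel cells and at 15.9, 18.8 and 11.4 CPM in Hermes 3A cells (log2 fold change -6.96, SE 0.478, adjusted p = 7.84e-05). CD82, another tetraspanin, was at 1.91 and 1.90 CPM against 33.2, 26.6 and 29.9 CPM (log2 fold change -3.97, SE 0.231). CD151, the tetraspanin that binds the laminin receptor ITGA3, was at 80.8 and 85.6 CPM against 270.1, 252 and 283 CPM (log2 fold change -1.69, SE 0.14). CD47 was not called (-0.05, SE 0.163).

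Integrin ligands other than laminins and collagens had 14 tested genes, with 8 lower and none higher (median log2 fold change -1.85). Of these genes 57.1% were called, against 48.2% of all genes (24.2% higher, 24% lower). The elastic fibre protein FBLN5 had 1 and 2 counts in 501Mel cells against 24.8 to 64.2 CPM in Hermes 3A cells, and THBS2, a thrombospondin, was at 1.85 and 1.12 CPM against 468, 237 and 268 CPM (log2 fold change -7.76, SE 0.473). FN1, fibronectin, the ligand of ITGA5, was at 2374 and 1785 CPM against 2526, 1802 and 2513 CPM and was not called (-0.13, SE 0.241). POSTN was not analysed here.

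Basement membrane partners of laminins had 10 tested genes, with 8 lower and none higher (median log2 fold change -3.66). Of these genes 80% were called, against 48.2% of all genes (24.2% higher, 24% lower). Without 501Mel replicate 2 fewer of them were called, all lower. The share called of all genes fell as well, and the gap between the shares was narrower. COL4A1 and COL4A2, the main collagen chains of basement membranes, differed most. COL4A2 was at 0.653 and 0.339 CPM in 501Mel cells and at 962, 512 and 620.5 CPM in Hermes 3A cells (log2 fold change -10.43, SE 0.505, adjusted p = 2.35e-05), and COL4A1 was at 0.338 and 0.0261 CPM against 536, 188 and 205 CPM (-10.64, SE 0.922). NID1, nidogen, which bridges laminin and collagen, was at 0.315 and 0.0522 CPM against 37.4, 36.0 and 41.9 CPM (log2 fold change -7.63, SE 0.52).

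Laminin receptors other than integrins, with the enzymes that glycosylate dystroglycan, had 13 tested genes, with 6 lower and 1 higher (median log2 fold change -0.79). The share called, 53.8%, was near that of all genes, 48.2%. DAG1, dystroglycan, was at 162 and 196 CPM in 501Mel cells and at 475, 480 and 545 CPM in Hermes 3A cells (log2 fold change -1.48, SE 0.166, adjusted p = 0.000543). SDC1, a syndecan, was lower as well (-1.22, SE 0.3), and SDC3 was higher, at 229 and 174 CPM against 115, 122 and 137 CPM (log2 fold change 0.70, SE 0.165, adjusted p = 0.0112). Over the 5 lists 45 of 67 tested genes were called, 4 higher and 41 lower, against 48.2% of all genes (24.2% higher, 24% lower).

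**Figure D4:**
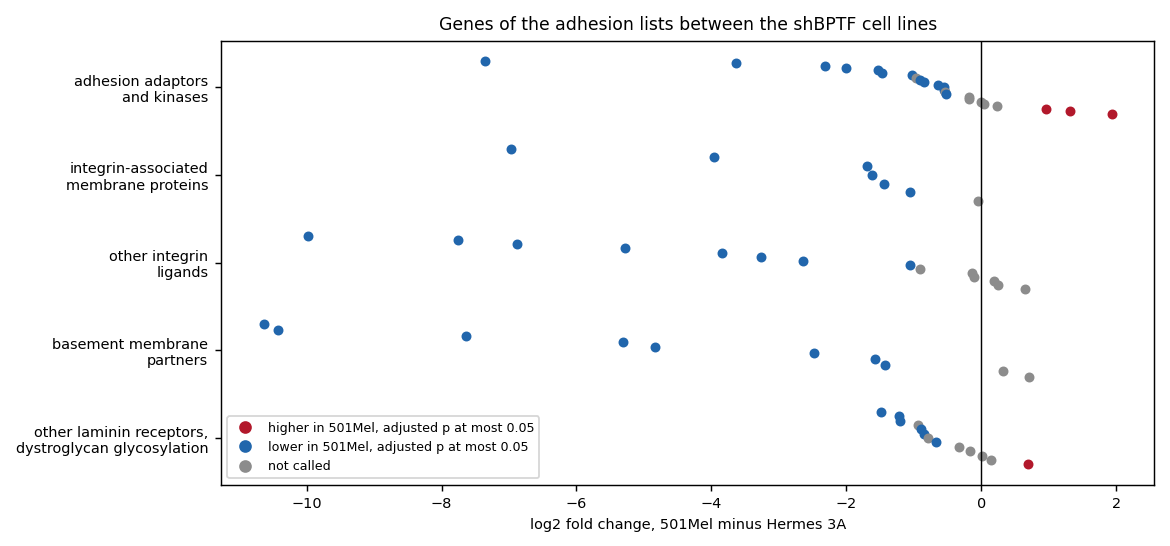
Log2 fold change, 501Mel minus Hermes 3A, of every tested gene in the 5 adhesion lists, 1 point a gene, coloured by its call. The basement membrane and membrane partner lists lie mostly left of zero, to -10.64 for COL4A1. The fitted value of FBLN5, with 3 counts over both 501Mel libraries, depends on the prior count.

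Markers of other cells differed between the lines as well. The fibroblast list summed to 17.7 and 4.2 CPM in 501Mel cells and to 86, 182 and 194 CPM in Hermes 3A cells, and most of the Hermes 3A sum was COL1A2, which was at 74, 177 and 190 CPM in Hermes 3A cells and at 0.0675 and 0.104 CPM in 501Mel cells. COL1A1 did not follow, at 0.486 to 1.04 CPM in Hermes 3A cells, and DCN was at 0.158 CPM or less in every library. The keratinocyte genes analysed were 4 of 7, without KRT5, KRT14 and KRT1. They summed to 32 and 33.9 CPM against 51.4, 43.4 and 45.1 CPM, almost entirely KRT10. The endothelium and platelet genes analysed, 4 of 6, summed to 1.01 and 1.1 CPM against 14.3, 10.2 and 11.5 CPM, mostly KDR. Their part in the integrin and laminin differences was not tested.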

How the data were processed

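RNA was measured in 5 libraries of total RNA depleted of rRNA and treated with a duplex-specific nuclease, which lowers abundant sequences and can compress levels between genes. The authors deposited raw read counts per gene, whole numbers without normalization. The submitters' processing notes name CASAVA 1.8, Bowtie 0.12.7, TopHat 1.4.1 and the build hg19. The counting program, annotation and use of strand are not given in the sources used here. Files of 501Mel cells list 37259 genes and those of Hermes 3A cells 34033, and the 31029 shared genes were used, with 99.3% to 99.9% of the counts. Whether counting differed between the lines is not given, and such a difference could not be told apart from cell line. Chi-square per gene between libraries of a line was at least 19.4, so none was merged.

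Counts were fitted with edgeR 4.0.16 in R 4.3.3 (quasi-likelihood test, TMM factors of 0.940 to 1.04, filterByExpr, Benjamini-Hochberg over 17975 genes, all 5 libraries, cell line as the only term). The fit was also run on simulated counts with a common spread for all genes and few changed genes. That setting is unlike these data and does not check the calls made here. Coordinates and lengths come from GENCODE 29 on GRCh38, matched by Ensembl identifier, not from the build of the authors. Alternatives were DESeq2 1.42.0 and limma 3.58.1 (voom), other scalings and filters, the replicate number as a block and leaving out each library. Intervals and floors cover counting error only. Members are named, except 1 that is not reported here, with full values for the 8 largest calls in each direction and all genes at 20 CPM or more on average, and for each list the 2 largest calls in each direction. CD151, TLN1, FN1, the other uncalled list genes and the ligand groups were named after their values were seen. Members and lists were chosen with earlier results of these data known. Protein sequences of the beta tails were planned and not used here.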

Additional observations from a re-analysis of the deposited data

How the results depend on the processing

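Integrin and laminin calls numbered 15, and 13 to 17 over all alternatives (13 to 17 when 1 library was left out), those of the 5 lists 45 and 31 to 48 (31 to 48 when 1 library was left out), and those of all genes 8669 and 6059 to 9282, the lowest without 501Mel replicate 1. Where 1 501Mel library was left, it was assumed to vary like the other line. Of the 15 called genes 12 kept their direction and call in all 12 alternatives. ITGA11 lost its call without 501Mel replicate 1, and ITGAE and LAMB4 lost theirs in 6 of 12 alternatives each, with adjusted p up to 0.118 and 0.19. ITGA2 and ITGA7 were called in 5 alternatives each, ITGA1, ITGA6, LAMA4 and LAMB1 without 501Mel replicate 1, and LAMA3 without Hermes 3A replicate 1. With the replicate number as a block 15 integrin and laminin genes, 43 list genes and 7461 genes in all were called, ITGA2 and ITGA7 among them and ITGAE and LAMB4 not. Deviations of libraries with the same number correlated at 0.122 over 2 pairs, and the numbers are only shared, so the unblocked fit stands. Uncalled in the comparison of all libraries, the log2 fold changes of 8 genes turned sign when 1 library was left out, from the lowest to the highest ITGA1 (-1.64 to 0.49), ITGA6 (-1.16 to 0.040), ITGAV (-0.24 to 0.44), ITGB7 (-0.80 to 0.078), LAMA1 (-0.51 to 0.070), LAMA2 (-1.35 to 0.014), LAMB1 (-1.97 to 0.17) and LAMC1 (-0.065 to 0.44). LAMA2 turned without Hermes 3A replicate 1, ITGAV without 501Mel replicate 1 or Hermes 3A replicate 2, LAMA1 without 501Mel replicate 2 or Hermes 3A replicate 1, LAMC1 without 501Mel replicate 1 and the others without 501Mel replicate 2. Called values that moved by over 1.5 times when 1 library was left out were those of ITGA4, ITGA5, ITGA11, ITGB3, LAMA5, LAMB3 and LAMC3, as given beside each, and limma-voom also moved ITGA4, ITGA5 and ITGA11. Without a filter the median over all genes was 0.13, and 0.09 or less in size under the others. With the median transcript length in place of the exon union LAMA1 took a mean of 67.3% of the 501Mel laminin alpha level and 46.1% of that of Hermes 3A cells.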
